A study of Homo sapiens with 6 samples.

Results

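The nuclear-encoded genes of the mitochondrial respiratory chain and ATP synthase were examined in IMR90 cells, a strain of fibroblasts from human fetal lung. They were chosen by name, as rows whose symbol starts with NDUF (complex I), SDH (complex II), UQCR (complex III), COX (complex IV) or ATP5 (complex V), without symbols that end in P and digits and without symbols that hold a hyphen. This gave 109 of the 57232 rows of the table, namely 48 for complex I, 7 for complex II, 9 for complex III, 26 for complex IV and 19 for complex V. All cells were at passage 13, were infected on the first day, were kept under puromycin until day 4, and were harvested on day 6. The vector group (3 libraries) carried an empty construct, and the ARID1B group (3 libraries) carried the cDNA of ARID1B, a subunit of the SWI/SNF chromatin remodeling complex, expressed in normal fibroblasts that keep their own copies of the gene. The study describes the libraries of a group as biological replicates, and the labels do not say whether they came from separate cultures, so p-values measure the spread between these libraries.

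Complexes I to IV pass electrons from NADH and succinate to oxygen and pump protons out of the mitochondrial matrix (complex II pumps none), and complex V lets the protons back to make ATP. Most of their subunits are encoded in the nucleus and imported, whereas a core set, including the central subunits of complexes I, III and IV, is encoded in mitochondrial DNA, so each complex but the second is built from the products of both genomes. Cells in culture can also draw much of their ATP from glycolysis, and the transcription factors NRF1, GABPA (an ETS factor) and YY1 are known for binding near the start sites of many of the nuclear genes.

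The promoters of these genes showed what they share in sequence. RefSeq start-site windows (GRCh38.p14) of 250 bases before to 50 bases after a start were searched on both strands for GCGCANGCG (NRF1), CCGGAAG (ETS factors) and AAGATGGCG (YY1), of which the last 2 can overlap in their AAG and did so in 0 genes. A window was held for 76 of the 91 genes tested below. NDUFA4, NDUFB5, NDUFB9, NDUFC2, NDUFS5, SDHC, UQCRB, COX11, COX6C, COX7A1, ATP5B, ATP5D, ATP5G3 and ATP5J2 are named only. The NRF1 letters stood in the windows of 24 of the 76 genes (31.6%), against 12.5% of 15843 coding genes. The ETS letters also stood in 24 genes (31.6%, against 16.5% of coding genes) and the YY1 letters in 9 (11.8%, against 3.21%). At least 1 of the 3 stood in 60.5% of the genes and in 28.1% of all coding genes. By complex, the NRF1 letters were held by 11 of 35 genes of complex I, 2 of 5 of complex II, 3 of 6 of complex III, 3 of 18 of complex IV and 5 of 12 of complex V. For the ETS letters these counts were 5 of 35, 3 of 5, 2 of 6, 9 of 18 and 5 of 12. A match is a description of the letters and not a measured binding site.

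The 100 bases before the start are shown for 1 gene of each complex that the results return to and that holds a motif there, with the motif in capitals. They lie at chr19:1383807-1383906 (+) for NDUFS7, chr11:112086773-112086872 (+) for SDHD, chr19:29213152-29213251 (-) for UQCRFS1, chr11:63974520-63974619 (+) for COX8A and chr12:53676084-53676183 (-) for ATP5G2. The capitals mark the NRF1 letters in NDUFS7, UQCRFS1 and ATP5G2 and the ETS letters in SDHD and COX8A.
NDUFS7: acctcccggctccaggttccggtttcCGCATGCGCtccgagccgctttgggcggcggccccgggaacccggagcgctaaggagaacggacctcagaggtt
SDHD: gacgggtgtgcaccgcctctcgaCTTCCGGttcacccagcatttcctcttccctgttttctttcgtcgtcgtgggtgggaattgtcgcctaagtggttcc
UQCRFS1: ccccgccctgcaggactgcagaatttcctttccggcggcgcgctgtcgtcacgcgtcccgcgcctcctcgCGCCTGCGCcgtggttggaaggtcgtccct
COX8A: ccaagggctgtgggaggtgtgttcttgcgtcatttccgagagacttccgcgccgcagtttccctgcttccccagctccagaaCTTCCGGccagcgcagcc
ATP5G2: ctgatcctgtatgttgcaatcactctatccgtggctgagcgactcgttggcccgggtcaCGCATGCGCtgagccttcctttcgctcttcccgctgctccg

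Values are FPKM, fragments scaled to gene length and to the library total by the authors, and library totals recovered from the steps of low values lay between 63386813 and 91924514 reads. The median tested gene held between 2283 and 3352.5 reads in a library, so counting error was small beside the spread between libraries. Below, the values of a group always stand in the order of replicates 1, 2 and 3. ARID1B itself stood at 2.29, 1.31 and 2.05 FPKM with the vector and at 32.5, 21.0 and 28.3 FPKM with its cDNA, and rose by 3.29 on the log2(FPKM + 1) scale (standard error 0.21, limma's adjusted p = 0.0255). All 6 fibroblast markers listed lay at or above 15.5 FPKM in each library, with summed levels of 2406, 1878 and 2365 FPKM with the vector and 1762, 2387 and 1879 FPKM with ARID1B. The blood markers PTPRC and CD14 and the epithelial marker CDH1 lay at or below 0.0525 FPKM, EPCAM and the endothelial marker VWF at or below 0.327 FPKM and CDH5 at 0, while the epithelial keratin KRT18 was found at 4.35 to 12.4 FPKM. Vector replicate 2 differed from all the other libraries, and among the fibroblast markers it had the lowest COL3A1 (38.3 FPKM against 125 to 282 FPKM), PDGFRB (15.5 against 23.3 to 37.8 FPKM) and COL1A2 (347 against 396 to 681 FPKM) and the highest VIM (846 against 428 to 622 FPKM). Replicate 3 of a group often lay between replicates 1 and 2. For the respiratory chain genes it did so in 82 of 91 genes with the vector (85% of all genes tested) and in 73 of 91 with ARID1B (69.2% of all genes tested). All 3 libraries of a group were treated as independent in the tests. If they are not, the standard errors and p-values given here are too small.

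Of the 109 rows, 91 reached a mean of 1 FPKM and were tested, with means from 1.12 FPKM for NDUFB8 to 261 FPKM for NDUFS5, an accessory subunit of complex I, and a median of 14 FPKM against 4.67 FPKM for the 10416 genes tested in all. Subunit genes (74 genes with the few that are neither subunit nor assembly factor) had a median of 20.3 FPKM. Assembly factors, which build the complexes but are not part of them, had a median of 4.08 FPKM (17 genes). The highest mean of each other complex was 21.7 FPKM for SDHC, 63.1 FPKM for UQCRH, 93.0 FPKM for COX8A and 107 FPKM for ATP5B, the catalytic beta subunit of ATP synthase.

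The 18 rows under 1 FPKM fell into 3 kinds. The first held isoforms known for other tissues, such as COX4I2 (0 or 1 read in each library), COX6A2 (0 in all 6), COX6B2, COX7B2 and COX8C, together with NDUFA4L2 at 0.0872 to 0.303 FPKM. The second held genes near the limit, the assembly factor NDUFAF6 at 0.781 to 1.06 FPKM and ATP5S at 0.616 to 0.967 FPKM. The third held subunits that are part of each copy of their complex but were listed at almost nothing, and duplicate rows. NDUFV2, a core iron-sulfur subunit of complex I, had 8 to 43 reads, NDUFA13 had 24 to 71 reads, UQCR11 of complex III had 11 to 31 reads on its main row, and NDUFA7 had 13 to 31 reads on 1 row and 0 on the other. In GENCODE v29 these genes share 28.4% (NDUFV2), 21.0% (NDUFA13), 10.9% (UQCR11) and 32.3% (NDUFA7) of their exon bases with another gene on the same strand. NDUFB8, SDHD and UQCR11 also have a second row, and these share 100%, 96.0% and 100% of their exon bases in the same way. Tested genes shared up to 36.0% (COX16), and the part of shared exons in the low values was not tested. ATP5L2 and ATP5J2LP were listed at 0 in all libraries.

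In limma on log2(FPKM + 1), none of the 91 genes passed an adjusted p of 0.05 in either direction. In the table as a whole 0.0288% of genes passed as higher and 0% as lower. At an unadjusted p under 0.05, 0 of the 91 genes were higher and 1 was lower (ATP5G2), against 4.64% and 5.94% of all genes tested. With voom, limma's test for counts, 0 of the 91 passed on the recovered reads. The sign of the change was nevertheless mostly negative. It was negative in 78 of the 91 genes (85.7%), against 52.4% of all genes tested, with a median log2 change of -0.13 against -0.02. Among genes with a longest transcript under 2000 bases, 88.0% of the 50 respiratory chain genes were negative, against 76.4% of all genes. For longer transcripts these shares were 82.9% (41 genes) and 46.4%. The medians of the complexes lay close together, at -0.14 for complex I (41 genes, 33 of them negative), -0.12 for complex II (6 genes, 5 negative), -0.11 for complex III (7 genes, 7 negative), -0.13 for complex IV (21 genes, 17 negative) and -0.15 for complex V (16 genes, 16 negative). Subunits and assembly factors both had a negative median, of -0.15 and -0.04. Single genes ran from -0.44 for ATP5D to 0.34 for COX7A1, with standard errors of 0.10 to 0.32. The changes are about as large as these errors, so a missed threshold does not show that levels were equal.

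The negative sign rested on 1 control library. Relative to each gene's mean over the 6 libraries, the median of the 91 genes was -0.16, 0.44 and -0.04 on the log2 scale with the vector and 0.02, -0.15 and -0.08 with ARID1B. The median of all genes tested lay between -0.04 and 0.02 in each library. The median was thus raised in vector replicate 2, and the other vector libraries lay within or near the range of the ARID1B libraries. Of the fibroblast markers named above, VIM was also highest in this library, while COL3A1, PDGFRB and COL1A2 were lowest there. What these marker differences have to do with the excess was not tested. Vector replicate 2 held the highest of the 6 values in 78 of the 91 genes (85.7%), against 39.5% of all genes tested. This was so for 36 of 41 genes of complex I, 4 of 6 of complex II, 7 of 7 of complex III, 15 of 21 of complex IV and 16 of 16 of complex V. Without vector replicate 2, 42 of the 91 genes were negative and the median was 0.02. Over all genes, 5433 of 10416 were negative in that fit, with a median of -0.01. Again 0 genes passed, with a lowest adjusted p of 0.0959 (COX17), while 1.2% of all genes passed as higher and 1.91% as lower in that fit. The medians of the complexes were then 0.02, -0.07, 0.00, 0.03 and 0.03 for complexes I to V.

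**Figure D1:**
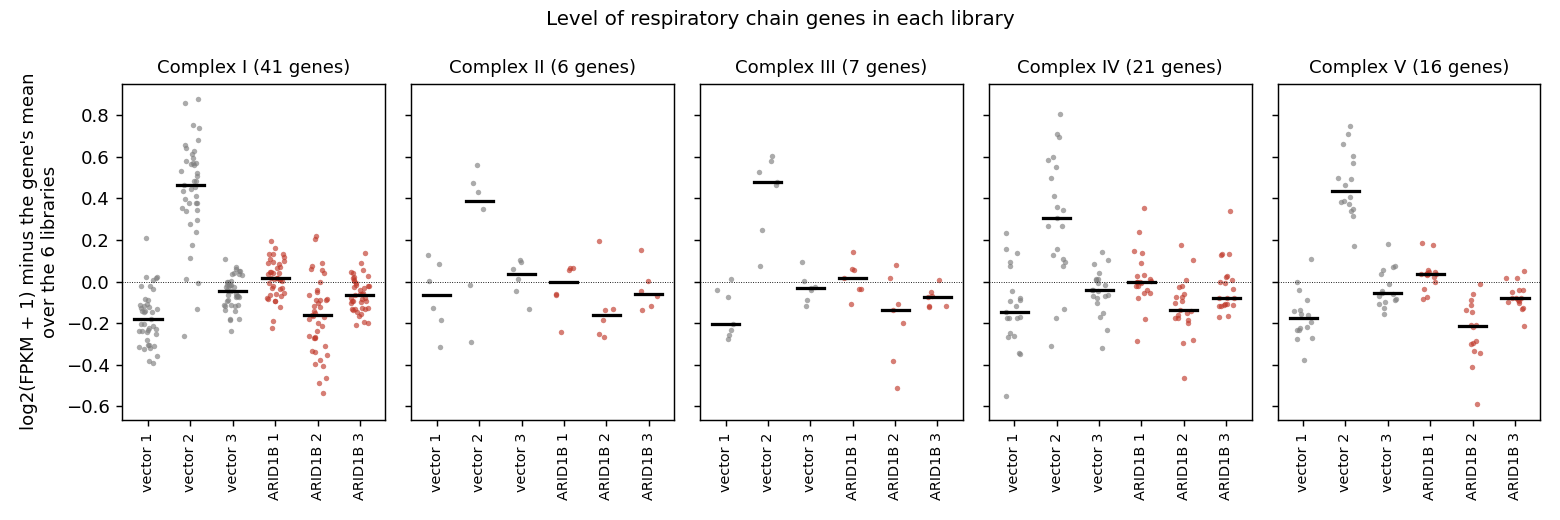
Each point is 1 of the 91 tested genes in 1 library, drawn as log2(FPKM + 1) minus the mean of that gene over the 6 libraries, by complex. Vector libraries are gray, ARID1B libraries are red and black lines are medians. Vector replicate 2 lies highest in each complex, with medians of 0.46, 0.39, 0.48, 0.30 and 0.43 for complexes I to V.

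Within the respiratory chain the excess of vector replicate 2 was not the same for each gene, and it followed transcript length. Genes whose longest transcript is under 2000 bases (50 genes) lay 0.67 higher on the log2 scale in vector replicate 2 than in the mean of vector replicates 1 and 3 (median). Those of 2000 bases or more (41 genes) lay 0.42 higher. Over all genes tested these medians were 0.38 for 2006 short and -0.08 for 8189 long transcripts. Both length classes of the respiratory chain thus lay above all genes tested of the same class. The lengths within a class were not matched. The median was 960.5 bases for the short respiratory chain genes against 1375.5 for all short genes. For the long ones it was 3056 against 4217 bases. The rank correlation of this excess with length was -0.57 across the 91 genes (-0.48 over 10195 genes with a known length) and that with GC content was 0.33 (0.36 over all), all across genes of the same libraries. The ARID1B minus vector change had a rank correlation with GC content of -0.62 across the 91 genes (-0.55 over all genes). Once GC content and length were corrected for, 68 of the 91 genes were negative and the median was -0.09. Over all 10195 genes in that fit, 5634 were negative and the median was -0.02. The part of length and base composition in the excess was not tested.

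**Figure D2:**
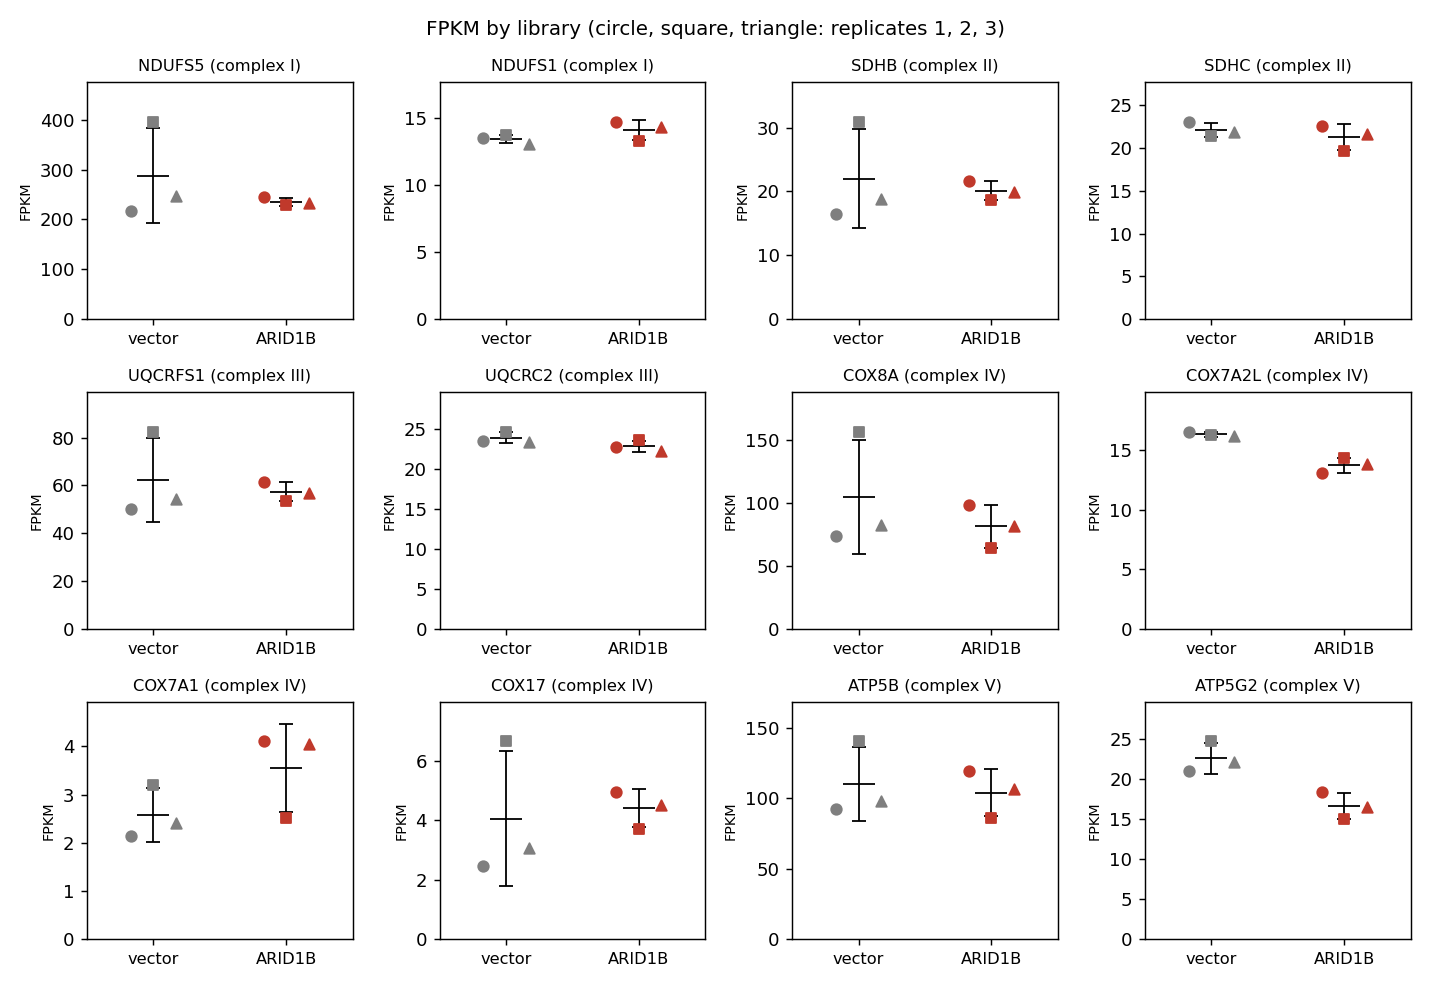
FPKM of 12 genes in each library on linear axes that start at 0, with the vector in gray and ARID1B in red. Horizontal marks are means and whiskers SDs (n = 3), and circles, squares and triangles are replicates 1, 2 and 3. Vector replicate 2 (gray square) stands above the rest for NDUFS5, SDHB, UQCRFS1, COX8A, COX17 and ATP5B, and lies with the other vector libraries for NDUFS1, SDHC, UQCRC2 and COX7A2L.

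Complex I takes electrons from NADH, and its core arm in the matrix is made of 7 nuclear-encoded subunits. NDUFV1, which binds the flavin that takes up the electrons of NADH, stood at 6.69, 11.3 and 7.51 FPKM with the vector and at 7.40, 5.39 and 6.56 FPKM with ARID1B (log2 change -0.33, standard error 0.21, adjusted p = 0.624). The groups overlapped, and without vector replicate 2 the change was -0.13. NDUFS1 (ENSG00000023228), the largest subunit, which carries iron-sulfur clusters, was level at 13.5, 13.7 and 13.1 FPKM with the vector and 14.7, 13.2 and 14.3 FPKM with ARID1B (log2 change 0.06, standard error 0.10). Its lowest and highest libraries differed less than those of any other core subunit, and vector replicate 2 did not stand out. NDUFS3, another of the core subunits, had a log2 change of -0.25, and of -0.00 without vector replicate 2. NDUFS7 and NDUFS8 hold the last iron-sulfur clusters on the path of electrons to ubiquinone. NDUFS7 stood at 1.48, 2.78 and 1.77 FPKM with the vector and 1.88, 1.06 and 1.54 FPKM with ARID1B. NDUFS8 stood at 5.61, 11.6 and 6.69 FPKM and at 7.49, 4.91 and 6.18 FPKM. Both had their highest value in vector replicate 2 and their lowest in ARID1B replicate 2, with log2 changes of -0.26 and -0.27 and of -0.09 and -0.00 without vector replicate 2. Of the 6 core subunits tested, 5 were negative in both fits, though NDUFS3 and NDUFS8 were near zero in the second, and NDUFS1 was positive in both.

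The accessory subunits of complex I surround this core, and 23 of 28 were negative (13 of 28 without vector replicate 2). NDUFS5 stood at 218, 396 and 248 FPKM with the vector and at 245, 229 and 233 FPKM with ARID1B, so that vector replicate 2 lay far above 5 libraries of one level (log2 change -0.24, standard error 0.23, and 0.02 without it). NDUFS6, which has a zinc-binding site, had the lowest change of complex I, at 16.3, 38.4 and 21.5 FPKM with the vector and 20.5, 14.3 and 18.4 FPKM with ARID1B (log2 change -0.42, standard error 0.32, and -0.09 without vector replicate 2). NDUFB11, a subunit of the membrane arm, lay lower with ARID1B (20.9, 18.4 and 19.3 FPKM) than with the vector (21.7, 32.6 and 23.1 FPKM) without overlap (log2 change -0.36, standard error 0.17, adjusted p = 0.522). The change was -0.19 without vector replicate 2 and -0.09 when corrected for length and GC content. NDUFA9 was also lower without overlap (1.93 to 2.17 FPKM against 2.26 to 2.84 FPKM), with a change of -0.17, and of -0.09 without vector replicate 2. Unlike that of NDUFB11, its change was larger when corrected for length and GC content (-0.34, limma's adjusted p = 0.662). The gap between the groups was small in both genes. Of the 6 assembly factors tested, 5 were negative, and without vector replicate 2 only NDUFAF3 was. NDUFA4, named for complex I but now counted as a subunit of complex IV, had a change of 0.03.

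Complex II is succinate dehydrogenase, an enzyme of the citric acid cycle with no mitochondrially encoded subunit. In the uncorrected levels of vector replicate 2, its catalytic part and its membrane anchor looked different. SDHA, which binds flavin and oxidizes succinate, stood at 7.47, 11.5 and 7.97 FPKM with the vector and 8.69, 6.79 and 7.82 FPKM with ARID1B. SDHB, the iron-sulfur subunit, stood at 16.4, 30.9 and 18.7 FPKM and at 21.7, 18.7 and 20.0 FPKM. Vector replicate 2 was the highest library for both. The anchors went otherwise, with SDHC at 23.1, 21.4 and 21.9 FPKM against 22.6, 19.6 and 21.7 FPKM, and SDHD (ENSG00000204370) at 9.42, 6.81 and 8.95 FPKM against 7.09, 9.94 and 9.63 FPKM. For SDHD vector replicate 2 was the lowest of the 6 libraries. The log2 changes were -0.17 for SDHA, -0.08 for SDHB, -0.05 for SDHC and 0.07 for SDHD, with standard errors of 0.18, 0.24, 0.11 and 0.18. Corrected for length and GC content, these changes were -0.16, 0.01, -0.25 and 0.07 and did not separate the catalytic part from the anchor. SDHAF1, an assembly factor that serves the iron-sulfur subunit, lay lower with ARID1B (4.61, 3.88 and 4.41 FPKM) than with the vector (4.87, 6.46 and 5.31 FPKM), also without overlap (log2 change -0.30, standard error 0.13, adjusted p = 0.485). Corrected for length and GC content its change was 0.03. SDHAF2, which helps to attach the flavin, had a change of -0.25, and of -0.08 without vector replicate 2.

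Complex III passes electrons from ubiquinol to cytochrome c. UQCRFS1, the Rieske iron-sulfur protein, stood at 50.1, 82.4 and 54.4 FPKM with the vector and 61.5, 53.5 and 57.0 FPKM with ARID1B (log2 change -0.09, standard error 0.21). Again 1 vector library was above the 5 others. The changes of the pair of core proteins differed before correction for length and GC content. UQCRC1 stood at 22.9, 34.4 and 25.2 FPKM with the vector and 24.5, 16.2 and 21.6 FPKM with ARID1B (log2 change -0.38, standard error 0.21, adjusted p = 0.578, and -0.22 without vector replicate 2). UQCRC2 was flat, at 23.6, 24.7 and 23.5 FPKM and 22.8, 23.6 and 22.3 FPKM (log2 change -0.06, standard error 0.10). Corrected for length and GC content, the changes were -0.15 for UQCRC1 and -0.09 for UQCRC2. UQCRH, the hinge protein that meets cytochrome c, was at 53.7, 93.0 and 60.6 FPKM with the vector and 60.4, 53.8 and 57.0 FPKM with ARID1B, with a change of -0.23 and of -0.00 without vector replicate 2.

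Complex IV, cytochrome c oxidase, reduces oxygen. Of its 11 tested subunits named COX, 10 were negative, and without vector replicate 2 it was 5 of 11. COX8A stood at 74.2, 157 and 82.9 FPKM with the vector and 98.0, 64.2 and 82.1 FPKM with ARID1B (log2 change -0.30, standard error 0.31, and 0.03 without vector replicate 2). COX6B1, which faces the side of cytochrome c, was at 57.9, 108 and 64.7 FPKM and at 62.9, 53.2 and 58.3 FPKM (log2 change -0.35, and -0.08 without that library). Both had a single high library, as most of the chain did. COX4I1, a subunit tied to control of the enzyme by ATP, had a change of -0.27, COX6A1 one of -0.13 and COX7A2 one of -0.16. Without vector replicate 2 these became -0.10, 0.18 and 0.09. COX7A2L (ENSG00000115944), a relative of COX7A2 known for joining complexes III and IV into supercomplexes, gave another pattern. It stood at 16.5, 16.2 and 16.1 FPKM with the vector and 13.1, 14.3 and 13.8 FPKM with ARID1B. The groups did not overlap and vector replicate 2 lay with its group, so that the log2 change was -0.23 (standard error 0.10, adjusted p = 0.475) with it and -0.24 (adjusted p = 0.144) without it. Corrected for length and GC content, the change of COX7A2L was -0.30 (limma's adjusted p = 0.298). COX7C was similar on a smaller scale, at 34.1, 34.6 and 33.4 FPKM against 30.6, 31.9 and 29.9 FPKM (log2 change -0.14, and -0.13 without vector replicate 2). Of the 9 assembly factors 6 were negative. COX17, the chaperone that brings copper to the enzyme, was at 2.44, 6.65 and 3.05 FPKM with the vector and 4.96, 3.70 and 4.52 FPKM with ARID1B. Its change was 0.18 (standard error 0.30, adjusted p = 0.831), and 0.52 (adjusted p = 0.0959) without vector replicate 2, the highest of the 91 genes in that fit. COX20, a chaperone of the mitochondrially encoded subunit 2, had a change of 0.14.

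Complex V makes ATP. In its catalytic head ATP5B stood at 92.3, 140 and 98.0 FPKM with the vector and 119, 85.9 and 107 FPKM with ARID1B (log2 change -0.07, standard error 0.21). ATP5A1, the alpha subunit, was at 45.9, 51.8 and 47.8 FPKM and at 47.1, 39.7 and 44.4 FPKM (log2 change -0.15). ATP5D, the delta subunit of the central stalk, had the lowest change of the 91 genes, with 8.87, 17.5 and 10.6 FPKM against 10.3, 6.34 and 9.31 FPKM (log2 change -0.44, standard error 0.28, adjusted p = 0.631, and -0.17 without vector replicate 2). The groups overlapped in all 3 genes. The gamma subunit ATP5C1 had a change of -0.01, the epsilon subunit ATP5E one of -0.13, and ATP5O, which links the head to the side stalk, one of -0.26. Without vector replicate 2 these were 0.18, 0.08 and -0.15, and those of ATP5B and ATP5A1 were 0.12 and -0.10. The gene with the lowest adjusted p of the 91 nuclear genes was ATP5G2 (ENSG00000135390), 1 of 3 genes for the c subunit of the proton-driven ring. It stood at 21.0, 24.7 and 22.1 FPKM with the vector and at 18.3, 15.1 and 16.5 FPKM with ARID1B. All ARID1B values were below all vector values (log2 change -0.42, standard error 0.12, limma's adjusted p = 0.350), and the change was -0.36 (adjusted p = 0.117) without vector replicate 2 and -0.38 when corrected for length and GC content. It did not pass the threshold in any of these fits.

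**Figure D3:**
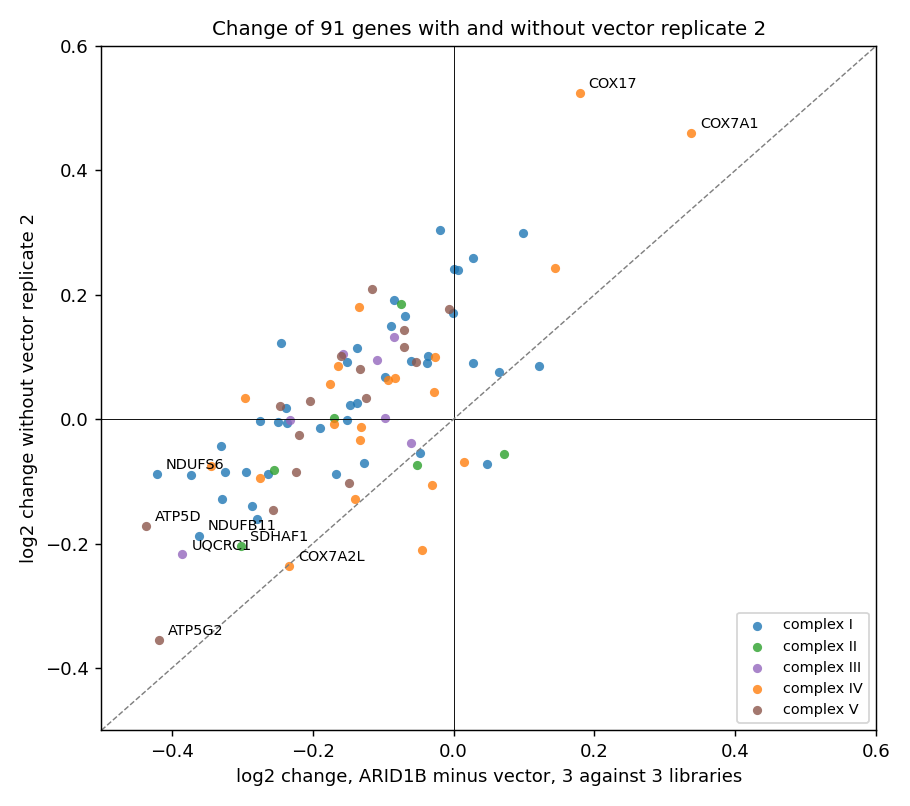
Log2 change of each of the 91 tested genes between ARID1B and vector with all 6 libraries (horizontal axis) and without vector replicate 2 (vertical axis), coloured by complex, with the dashed line where both are equal. Most points lie above the line, 78 are left of zero but only 42 are below it, and ATP5G2 and COX7A2L lie on or near the line.

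In all, 6 of the 91 genes lay lower in all ARID1B libraries than in all vector libraries (NDUFA9, NDUFB11, SDHAF1, COX7A2L, COX7C and ATP5G2), against 11.1% of all genes tested, and 0 lay higher in this way, against 9.44% of all genes tested. The share that was lower is below that of the background. For a single gene an exact permutation test of 3 against 3 libraries cannot go below p = 0.1 two-sided.

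Where the same subunit is made from more than 1 gene, the share of each gene in the summed FPKM was followed in each library. A share takes out a shift common to all paralogs but not one that differs between them. The log2 excess of vector replicate 2 over the mean of vector replicates 1 and 3 was 0.98 for ATP5G1, 0.19 for ATP5G2 and 0.43 for ATP5G3. The 3 c subunit genes encode the same mature protein behind different import sequences. Over the last 75 codons of the coding sequence in GENCODE v29 (GRCh38) they differ in 0 amino acids, but ATP5G1 and ATP5G2 differ in 25 of 225 bases (88.9% identical) and ATP5G3 differs from each of them in 42 bases (81.3% identical). The first 120 bases of this stretch are shown, with capitals where the 3 genes differ (24 positions), because these bases are what lets reads be told apart within the shared part. They are exonic and coding, and span chr17:48895222-48895661 (+), chr12:53665422-53669260 (-) and chr2:175178396-175179169 (-) with the introns between. The longest run of bases that is the same in a pair was 17, 11 and 17 for the pairs ATP5G1 and ATP5G2, ATP5G1 and ATP5G3, and ATP5G2 and ATP5G3.
ATP5G1: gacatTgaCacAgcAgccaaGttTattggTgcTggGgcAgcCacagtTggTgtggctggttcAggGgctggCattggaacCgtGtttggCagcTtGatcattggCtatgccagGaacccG
ATP5G2: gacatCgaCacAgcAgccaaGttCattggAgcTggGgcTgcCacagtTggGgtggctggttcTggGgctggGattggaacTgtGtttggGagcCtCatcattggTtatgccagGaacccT
ATP5G3: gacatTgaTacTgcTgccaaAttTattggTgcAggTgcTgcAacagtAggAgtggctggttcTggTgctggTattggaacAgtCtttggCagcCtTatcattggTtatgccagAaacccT

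ATP5G2 gave 47.0%, 38.8% and 46.4% of the c subunit FPKM with the vector and 38.2%, 39.0% and 36.8% with ARID1B. The groups overlapped through vector replicate 2 (p = 0.2, two-sided exact permutation test). ATP5G3 gave 38.1%, 37.2% and 36.9% with the vector and 40.3%, 44.2% and 42.4% with ARID1B, with each ARID1B library above each vector library (p = 0.1, two-sided exact permutation test, the smallest that 3 against 3 allow). ATP5G1, the smallest of the 3, gave 14.9%, 24.0% and 16.7% against 21.5%, 16.8% and 20.7%, with overlap (p = 0.8, two-sided exact permutation test). Its highest share was in vector replicate 2, where its level of 15.3 FPKM stood against 6.66 and 7.93 FPKM in the other vector libraries. The shares were not corrected for length and GC content. The log2 changes of ATP5G1, ATP5G2 and ATP5G3 were -0.12, -0.42 and -0.05, and -0.09, -0.38 and -0.22 when corrected. In complex IV, COX7A1, the isoform known from heart and skeletal muscle, gave 9.98%, 8.29% and 9.76% of the sum of COX7A1 and COX7A2 with the vector and 15.0%, 10.6% and 15.8% with ARID1B. The groups did not overlap (p = 0.1, two-sided exact permutation test). The level of COX7A1 was 2.14, 3.21 and 2.40 FPKM against 4.10, 2.51 and 4.05 FPKM, the highest change of the 91 genes with all 6 libraries (log2 change 0.34, standard error 0.19, adjusted p = 0.593), and there ARID1B replicate 2 lay among the vector libraries. COX7A1 had 207 to 507 reads, and 207 was the lowest count of the 91 genes. Corrected for length and GC content, its change was 0.64 (limma's adjusted p = 0.213). Over the 4 shares tested the Benjamini-Hochberg adjusted p of these exact tests were 0.2 for COX7A1 and ATP5G3, 0.267 for ATP5G2 and 0.8 for ATP5G1. The other pairs had a partner under 1 FPKM and were not tested. NDUFA4L2 gave 0.233% to 1.07% of its pair, and COX4I2, COX6A2, COX6B2 and COX8C each gave 0% to 0.106% of theirs.

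**Figure D4:**
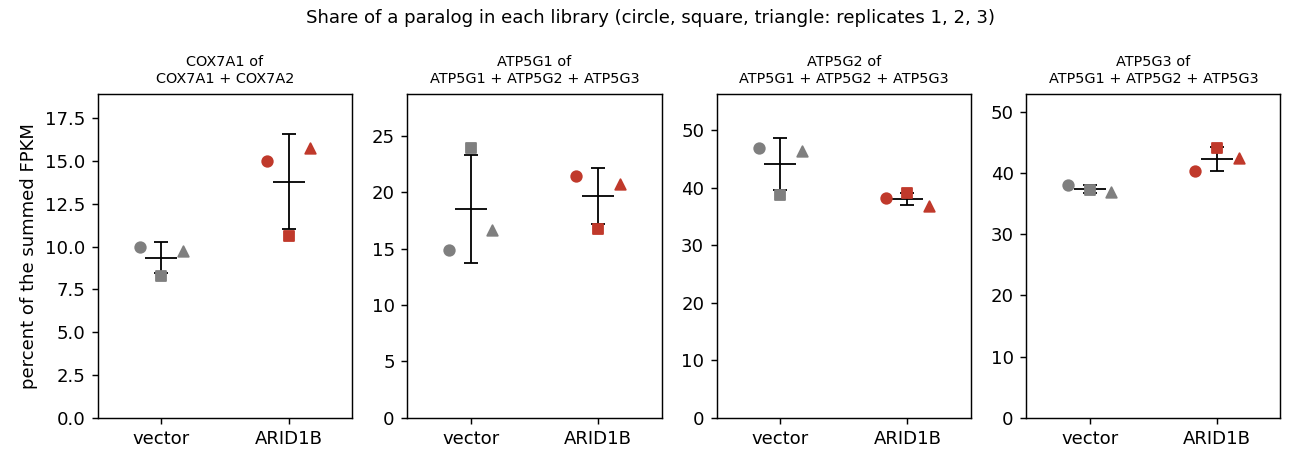
Share of a paralog in the summed FPKM of its pair or trio, in percent, in each library (vector gray, ARID1B red, circles, squares and triangles for replicates 1, 2 and 3, marks for means and whiskers for SDs, n = 3). COX7A1 and ATP5G3 have higher shares in each ARID1B library, and the shares of ATP5G1 and ATP5G2 overlap.

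The other genes of the pathway were taken from 4 lists, and 0 of their genes passed with all 6 libraries in limma. The counts of negative genes below stand beside 52.4% negative over all genes tested. Of 34 other genes of oxidative phosphorylation (cytochrome c, further assembly factors), 23 were negative with a median log2 change of -0.10 (-0.00 without vector replicate 2). CYCS, which encodes cytochrome c, the carrier between complexes III and IV, stood at 17.8, 19.1 and 16.2 FPKM with the vector and 20.1, 25.1 and 29.1 FPKM with ARID1B (log2 change 0.45, adjusted p = 0.419). HIGD1A, a small inner membrane protein found with complex IV, stood at 25.4, 31.5 and 24.6 FPKM and 33.7, 36.4 and 37.5 FPKM (log2 change 0.40, adjusted p = 0.391). Neither gene's groups overlapped, and HIGD1A rose past the threshold in the fit that left out vector replicate 2 (log2 change 0.50, limma's adjusted p = 0.0455), in which 1.2% of all genes passed as higher. On the other side HIGD2A, a relative of HIGD1A that helps to assemble complex IV, stood at 62.8, 85.5 and 69.0 FPKM with the vector and 60.8, 42.8 and 53.2 FPKM with ARID1B (log2 change -0.47, adjusted p = 0.451, and -0.34 without vector replicate 2), and the assembly factor COA6 had a change of -0.27 (adjusted p = 0.462), both also without overlap. In the whole list 3 genes lay higher and 4 lower without overlap, against 9.44% and 11.1% of all genes tested. Of 22 genes of the citric acid cycle and pyruvate dehydrogenase, 13 were negative with a median of -0.06 (0.05 without vector replicate 2). IDH2, the mitochondrial NADP-dependent isocitrate dehydrogenase, was at 18.2, 15.6 and 18.5 FPKM against 14.2, 13.3 and 13.5 FPKM (log2 change -0.33, adjusted p = 0.401, and -0.40 without vector replicate 2). The groups did not overlap, and the same was true in the other direction of DLAT, the E2 subunit of pyruvate dehydrogenase (log2 change 0.25, adjusted p = 0.469). Of 17 regulators of mitochondrial biogenesis and mitochondrial DNA, 9 were negative with a median of -0.03 (0.05 without vector replicate 2). POLG, the polymerase that copies mitochondrial DNA, had a change of -0.23, and POLRMT, which transcribes it, one of -0.26, in both cases with the highest value in vector replicate 2 (7.72 and 6.00 FPKM), and -0.06 and -0.04 without it. The other 8 of the 17 were positive, among them NRF1 (0.08), GABPA (0.10), TFAM (0.17) and MYC (0.38). Without vector replicate 2 these 4 changes were 0.10, -0.26, 0.03 and 0.61. The coactivator genes PPARGC1A and PPARGC1B lay at or below 0.109 FPKM in each library.

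The subunits encoded in mitochondrial DNA had a positive change in all 13 cases, against 4963 of the 10416 genes tested. Their median was 0.45 on the log2 scale (0.70 without vector replicate 2), beside medians of -0.13 and 0.02 for the 91 nuclear genes in the same fits. For 5 of the 13 ARID1B lay above the vector without overlap, against 9.44% of all genes tested, and none passed limma's adjusted p of 0.05 in either fit. MT-ND5, a membrane subunit of complex I, stood at 692, 523 and 645 FPKM with the vector and 1150, 2093 and 1308 FPKM with ARID1B (log2 change 1.25, adjusted p = 0.285). MT-ND4L stood at 1219, 612 and 1052 FPKM and at 2026, 3038 and 2126 FPKM (log2 change 1.35, adjusted p = 0.301). It overlaps MT-ND4, as MT-ATP8 overlaps MT-ATP6, so their reads cannot be fully told apart. MT-ND3 had the lowest change of the 13, at 0.07. MT-CO2, a core subunit of complex IV, was at 4936, 9061 and 5477 FPKM with the vector and 6005, 8105 and 6000 FPKM with ARID1B (log2 change 0.08), with its highest value in vector replicate 2, as in most of the nuclear genes. Summed over 72 nuclear subunit genes the level was 1734, 2865 and 1914 FPKM with the vector and 2026, 1732 and 1876 FPKM with ARID1B, and over the 13 mitochondrial ones 24017, 35822 and 25348 FPKM and 31161, 46863 and 32827 FPKM. The ratio of the sums was 13.9, 12.5 and 13.2 with the vector and 15.4, 27.1 and 17.5 with ARID1B, so that the groups did not overlap and ARID1B replicate 2 stood furthest out. In bulk RNA these levels cannot tell more mitochondrial DNA per cell from more RNA per copy.

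**Figure D5:**
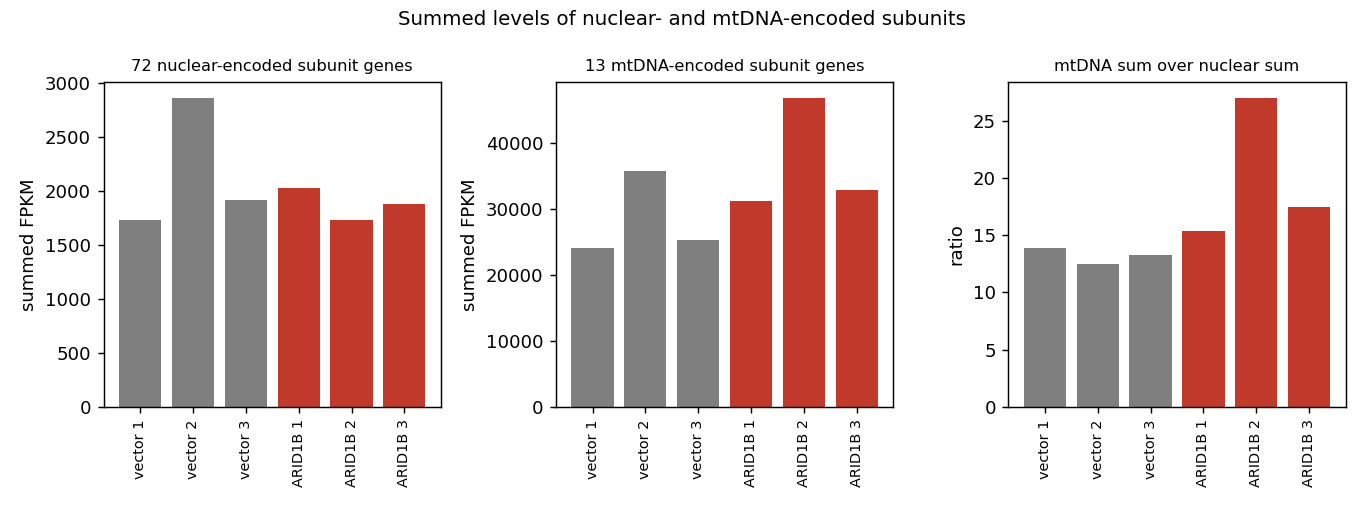
Summed FPKM of 72 nuclear-encoded subunit genes, summed FPKM of the 13 subunits encoded in mitochondrial DNA, and their ratio, in each library (vector gray, ARID1B red, axes from 0). The nuclear sum is highest in vector replicate 2 at 2865 FPKM, and the ratio runs from 12.5 to 13.9 with the vector and from 15.4 to 27.1 with ARID1B.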

How the data were processed

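RNA from 6 IMR90 libraries was sequenced after a stranded mRNA preparation, and the authors deposited 1 FPKM value per gene and library. The submitters list the build hg19 and the tools DESeq2, HTSeq (0.5.3p9) and TopHat2 (2.0.11), and the gene annotation is not given in the sources used here. Reads behind each FPKM value were recovered from its steps, and all 10416 genes tested came out whole within 0.002 reads. Groups came from the sample titles. Genes that averaged 1 FPKM or more entered a fit in limma 3.58.1 under R 4.3.3 on log2(FPKM + 1) with a trended variance, which understates changes of low genes, with Benjamini-Hochberg adjustment over all of them and a threshold of 0.05. The fit was tested on simulated data. Shares of paralogs were compared by exact permutation (scipy 1.17.1). Length, GC content and shared exons came from GENCODE v29 (GRCh38), a build other than hg19. The members and lists were chosen with earlier results of these data known. Named genes were those with the highest level and the 2 smallest p of each complex, core subunits, paralogs, the 3 highest and 3 lowest changes, non-overlapping genes, and 2 genes of each list. Some genes that this rule gives are left out of the text and are not reported here by name. Other genes shown were chosen after their values were seen. Alternatives were another pseudocount (0.1), no filter, a minimum mean of 5 FPKM, quantile and median-ratio scaling, an untrended variance, a replicate block, each library left out, both libraries numbered 3 left out, splines (5 degrees of freedom each) that took out length and GC content, and voom on the recovered reads.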

Additional observations from a re-analysis of the deposited data

How the results depend on the processing

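The count of respiratory chain genes past the threshold was 0 in both directions in all 16 alternatives, and their median log2 change stayed negative in all but the one without vector replicate 2 (range when 1 library is left out -0.25 to 0.022). Some single genes changed sign. ATP5C1 was 0.0076 under median-ratio rescaling and 0.047 under quantile normalization, and ATP5B 0.029 under the latter. With both libraries numbered 3 left out NDUFA4 was -0.040 and the difference in the ATP5G1 share -0.31 percentage points. Corrected for length and GC content, ATP5B was 0.023, ATP5C1 0.025, NDUFA4 -0.018, NDUFS1 -0.14, SDHAF1 0.027 and SDHB 0.010. With single libraries left out the ranges that crossed zero were -0.18 to 0.12 for ATP5B, -0.12 to 0.18 for ATP5C1, -0.28 to 0.080 for ATP5E, -0.33 to 0.21 for ATP5G1, -0.14 to 0.091 for ATP5G3, -0.052 to 0.52 for COX17, -0.34 to 0.18 for COX6A1, -0.34 to 0.086 for COX7A2, -0.50 to 0.033 for COX8A, -0.12 to 0.26 for NDUFA4, -0.41 to 0.018 for NDUFS5, -0.28 to 0.0020 for SDHA, -0.25 to 0.19 for SDHB, -0.094 to 0.0033 for SDHC, -0.056 to 0.21 for SDHD, -0.22 to 0.13 for UQCRFS1 and -0.66 to 3.88 percentage points for the ATP5G1 share. For most of them vector replicate 1 gave the low end and vector replicate 2 the high end. Across genes, the deviations of libraries of the same number in both groups had a Pearson's r of -0.46, -0.43 and -0.17. These r values cannot tell whether such libraries shared a batch or a culture, because the 3 deviations within a group depend on each other. With a replicate block the median log2 change of the 91 genes was -0.13 and limma's lowest adjusted p was 0.811. The lowest read count of the 91 genes in a library was 207, and the part of depth in these results was not tested. Each fit has at most 3 libraries a group, and the sign of the median log2 change depended on vector replicate 2.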
